A study of Mus musculus with 4 samples.

Results

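Fos, Fosb, Jun, Junb, Egr1, Atf3, Ier2, Zfp36, Dusp1 and Nr4a1 are 10 immediate early genes, followed here among 22005 gene symbols through single-cell RNA libraries of mouse small intestinal epithelium and whole lung. All 10 were present in every count table. Each tissue was taken from C57BL/6J mice and broken up mechanically and with enzymes. It gave 1 library of multiplets (barcodes meant to hold more than 1 cell) and 1 library of singlets. The intestinal libraries held 3671 multiplet and 5279 singlet barcodes, and the lung libraries 4729 multiplet and 6084 singlet barcodes. The 4 groups carried no treatment or allele, the labels name no separate animals, and all 4 were dissociated, so no group was free of dissociation. The study asks which cell types make up the multiplets, and the question followed here is which cell classes carry the early response.

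Immediate early genes are switched on within minutes of a stimulus, without new protein synthesis, by factors that already sit in the cell. Fos and Fosb proteins pair with Jun or Junb to form the transcription factor AP-1, Egr1 is a zinc-finger transcription factor, Atf3 a stress-induced relative of the AP-1 proteins and Nr4a1 an orphan nuclear receptor. Ier2 is a short-lived nuclear protein. Zfp36 (tristetraprolin), which destabilises AU-rich mRNAs, and Dusp1, a phosphatase of MAP kinases, belong to the brakes on the response. Tissue dissociation with enzymes is a well-known trigger of these genes, and none of the values below separates that from expression in the intact tissue.

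Because the members moved together across the intestinal classes (less so across those of the lung), the promoters on record were read for shared sites. RefSeq windows from 250 bases before to 50 bases after the transcript start (build GRCm38.p6) were matched for 8 of the 10 genes. Egr1 and Ier2 are named only. The sequence TGACG, the core of the cAMP response element bound by CREB and ATF proteins, was searched on both strands and lay in 6 of these 8 windows (Atf3, Dusp1, Fos, Fosb, Junb and Nr4a1), against 20.8% of all 32851 windows. The full palindrome TGACGTCA, which contains the core on both strands, lay in the Dusp1 window alone among the 8 and in 1.79% of all windows. The AP-1 site TGANTCA lay in 0 of 8 windows and in 7.81% of all windows, the CArG box of serum response factor in the Zfp36 window and 1.63% of all, and TATAAA in the Fos and Junb windows and 13.6% of all. These matches describe letters within 300 bases and do not show binding. Of the 5 genes whose windows are printed, Fos encodes a part of AP-1. Atf3 had the widest span between intestinal classes among members counted in every class, and the Nr4a1 window holds 4 core matches. Dusp1 holds the palindrome and Jun has no core match. Each runs 5′ to 3′ in the direction of its gene, with TGACG or its complement CGTCA in capitals. The windows lie at chr12:85473640-85473939 (plus strand) for Fos, chr1:191183284-191183583 (minus) for Atf3, chr15:101266596-101266895 (plus) for Nr4a1, chr17:26508423-26508722 (minus) for Dusp1 and chr4:95052173-95052472 (minus) for Jun.
Fos: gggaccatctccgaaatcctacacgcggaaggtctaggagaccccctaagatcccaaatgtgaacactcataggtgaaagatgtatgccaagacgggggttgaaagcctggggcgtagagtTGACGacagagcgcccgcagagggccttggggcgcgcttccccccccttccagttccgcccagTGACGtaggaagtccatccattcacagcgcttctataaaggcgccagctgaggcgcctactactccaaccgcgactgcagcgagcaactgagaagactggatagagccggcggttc
Atf3: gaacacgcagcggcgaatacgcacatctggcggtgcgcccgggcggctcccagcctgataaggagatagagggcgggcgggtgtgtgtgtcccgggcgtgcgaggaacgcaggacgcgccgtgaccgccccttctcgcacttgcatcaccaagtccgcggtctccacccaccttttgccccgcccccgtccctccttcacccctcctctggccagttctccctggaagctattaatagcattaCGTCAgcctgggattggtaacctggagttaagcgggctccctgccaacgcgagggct
Nr4a1: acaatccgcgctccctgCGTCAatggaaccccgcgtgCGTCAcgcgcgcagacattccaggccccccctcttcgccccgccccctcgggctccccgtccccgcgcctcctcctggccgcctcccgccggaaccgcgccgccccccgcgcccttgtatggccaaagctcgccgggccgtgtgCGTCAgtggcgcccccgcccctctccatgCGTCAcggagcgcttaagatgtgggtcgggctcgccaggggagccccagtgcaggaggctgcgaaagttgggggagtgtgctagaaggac
Dusp1: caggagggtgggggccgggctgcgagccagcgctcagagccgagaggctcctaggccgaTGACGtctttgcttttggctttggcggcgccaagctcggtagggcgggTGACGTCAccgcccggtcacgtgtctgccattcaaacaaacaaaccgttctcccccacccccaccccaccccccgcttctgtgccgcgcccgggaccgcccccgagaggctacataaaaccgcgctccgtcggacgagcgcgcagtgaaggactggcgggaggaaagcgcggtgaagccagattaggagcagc
Jun: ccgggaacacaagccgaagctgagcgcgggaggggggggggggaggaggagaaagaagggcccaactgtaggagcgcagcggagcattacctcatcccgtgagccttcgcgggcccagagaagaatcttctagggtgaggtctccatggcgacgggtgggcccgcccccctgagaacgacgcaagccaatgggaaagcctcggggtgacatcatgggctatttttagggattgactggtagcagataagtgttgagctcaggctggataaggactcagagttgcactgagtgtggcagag
In the Nr4a1 window 4 core matches were found, the nearest of them starting 40 bases before the transcript start, and in the Fos window 2, the nearer starting 66 bases before it. The single Atf3 match began 7 bases before the start.

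Levels are UMIs (counts of single captured mRNA molecules) summed over the cells of a class and divided by the class total, as CPM (the counts-per-million unit). The classes are those of the authors' deposited annotation, whose making no source at hand describes, and these genes may have taken part in it. Library totals ran from 47764845 to 66277622 UMIs and the mitochondrial share from 3.80% to 5.02%. Any pair of libraries shared between 2 and 15 barcodes. All classes with a marker list of their own had the highest summed markers of that list, with none of the markers at 0, except that Fibroblast-1 came second to Fibroblast-2, and 4 of 6 macrophage markers were highest in the Macrophage class. That class also had the highest level of all 5 neutrophil markers (S100a8, S100a9, Retnlg, Csf3r and Cxcr2), at 3274 CPM beside 1183 CPM of macrophage markers, while the other 10 ranked lung classes had 7.52 to 44.0 CPM of them. With 1 library per group there is no replicate and no test. Intervals are 95% exact Poisson or Clopper-Pearson intervals that cover counting error only, and the words higher and lower in a count of genes mean past 1.5-fold, a limit of size and not a test.

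In the small intestine, the early genes sat in the secretory classes. Enteroendocrine cells, which release gut hormones, had 4824 CPM of the 10 genes together (4693 to 4958, 175 cells), and Goblet cells, which make mucus, had 4265 CPM (4223 to 4308, 985 cells). Paneth cells, the antimicrobial cells of the crypt base, followed with 1796 CPM (88 cells), Tuft cells with 1278 CPM (112 cells), Enterocytes with 1050 CPM (191 cells) and Stem cells with 1022 CPM (587 cells). The intervals of Enterocytes and Stem cells overlapped. The proliferating and maturing classes closed the order, with 546 CPM in Progenitor late-1 cells, 524 CPM in Transit amplifying cells (overlapping intervals), 473 CPM in Progenitor early cells and 393 CPM in Progenitor late-2 cells. Goblet cells were 18.7% of the singlets and held 56.2% of all UMIs of these genes. Their summed level was 5.39-fold that of all other singlets (5.31 to 5.47), at 4265 CPM against 791 CPM. Enteroendocrine cells stood 3.49-fold above the rest (3.39 to 3.59).

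**Figure D1:**
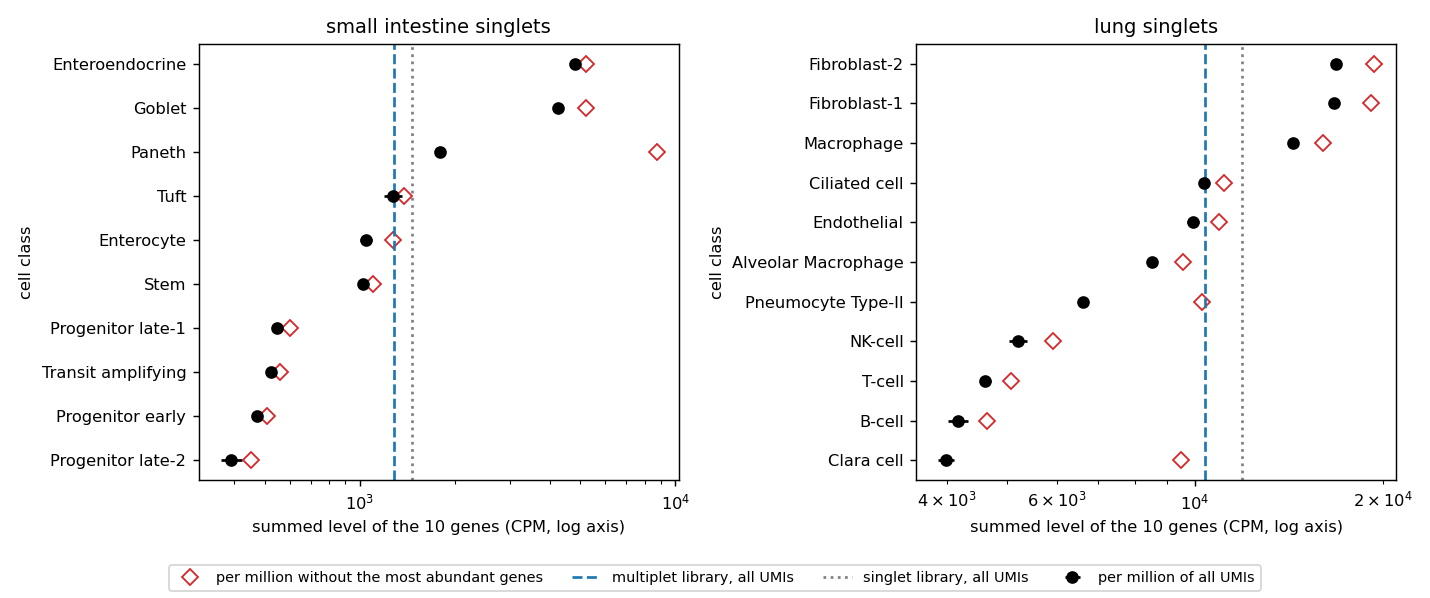
Summed level of the 10 early genes by singlet class (CPM, log axis), highest class on top, with 95% Poisson intervals on the filled points. Open diamonds divide by a total without the genes above 1% of the UMIs of any class, which moves Paneth cells to 8734 CPM. Dashed lines mark the multiplet libraries (1282 CPM in the small intestine, 10387 CPM in the lung) and dotted lines the singlet libraries (1460 and 11906 CPM).

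Goblet cells were higher for 10 of 10 members, against a background of 12.8% of all genes called higher in that class. Enteroendocrine cells were also higher for 10 of 10, against 30.9% of all genes called higher and 19.7% lower. Fos stood at 941 CPM in Goblet cells and 119 CPM in the other singlets (7.89-fold, 7.61 to 8.18), and Jun at 1225 CPM and 252 CPM (4.86-fold). Among the brakes, Dusp1 had 169 CPM in Goblet cells and 20.3 CPM in the rest (8.32-fold), and Zfp36 had 89.5 CPM and 23.2 CPM (3.86-fold). Every member was lower in Progenitor early cells (15.9% of all genes were lower there and 6.33% higher), in Transit amplifying cells (17.5% lower, 17.1% higher) and in Progenitor late-2 cells (33.2% lower, 13.1% higher). In Progenitor late-1 cells 9 of 10 were lower (31.1% lower, 12.7% higher). Stem cells were lower for 8 of 10 and higher for none (19.5% lower, 19.2% higher). Enterocytes were lower for 6 and higher for Zfp36 (51.3% lower, 16.0% higher), and Tuft cells were lower for 5 and higher for none (27.3% lower, 28.9% higher). For each of these classes the other singlets include Goblet cells, which held 56.2% of the early-gene UMIs. The sums of Stem (1022 CPM), Enterocyte (1050 CPM) and Tuft cells (1278 CPM) lay above that of all singlets outside Goblet cells, given above. How many members would be lower against a reference without Goblet cells was not tested.

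The members differed in how steep this ladder was. Atf3 spanned the most among members counted in every class, with 363 CPM in Goblet cells and 3.15 CPM in Progenitor early cells, a 115-fold span (the lower value rests on 30 UMIs). Fosb spanned 50.6-fold, with 244 CPM in Goblet cells and 4.81 CPM in Progenitor late-2 cells (8 UMIs), and Dusp1 37.6-fold, with 169 CPM in Enteroendocrine cells and 4.51 CPM in Progenitor early cells. Fos spanned 19.8-fold, Egr1 18.3-fold, Junb 17.1-fold and Jun 15.9-fold. Ier2 spanned the least, with 814 CPM in Enteroendocrine cells and 109 CPM in Enterocytes (7.48-fold), after Zfp36 at 11.5-fold. Nr4a1 had 31.1 CPM in Enteroendocrine cells, 29.9 CPM in Paneth cells and 18.8 CPM in Goblet cells, and at most 3.07 CPM in the other 7 classes. In Progenitor late-2 cells 0 UMIs of Nr4a1 were counted, which allows up to 2.22 CPM. Goblet cells led for Fos, Fosb and Atf3, and Enteroendocrine cells for the other 7. The Goblet and Enteroendocrine intervals overlapped for Atf3, Dusp1 and Nr4a1, and for Nr4a1 the Enteroendocrine interval overlapped that of Paneth cells as well.

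The place of Paneth cells depended on the divisor. The 7 defining Paneth products reached 579496 CPM in that class, and 31 genes above 1% of any class took 79.4% of its UMIs, so that 94.7% of all genes were called lower there and 1.61% higher. Against that background 5 members were higher in Paneth cells (Fos 1.52-fold, Fosb 1.80, Atf3 2.02, Dusp1 1.61 and Nr4a1 5.76) and none lower. Without those 31 genes in the total, Paneth cells had 8734 CPM of the early genes, the highest of the 10 classes, against 5205 in Goblet cells and 5203 in Enteroendocrine cells, and their fold over the rest was 5.44, where it was 1.24 on the full total. All 10 members then exceeded 1.5-fold, between 3.28-fold for Zfp36 and 25.2-fold for Nr4a1, where 18.1% of all other genes were called higher in Paneth cells and 39.7% lower on that total. Paneth cells then also led for each member except Junb, Egr1 and Zfp36, which stayed highest in Enteroendocrine cells. For Egr1 (386 CPM in Enteroendocrine and 383 CPM in Paneth cells) and Zfp36 (135 and 133 CPM) the values were close. Single members have no intervals on that total, so these classes are not ranked for them. TMM factors, which scale on genes of middling change, gave 5.92-fold. Leaving mitochondrial and ribosomal protein genes out of the total gave 0.982-fold. Goblet and Enteroendocrine cells stayed above 1.5-fold under each of these divisors.

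**Figure D2:**
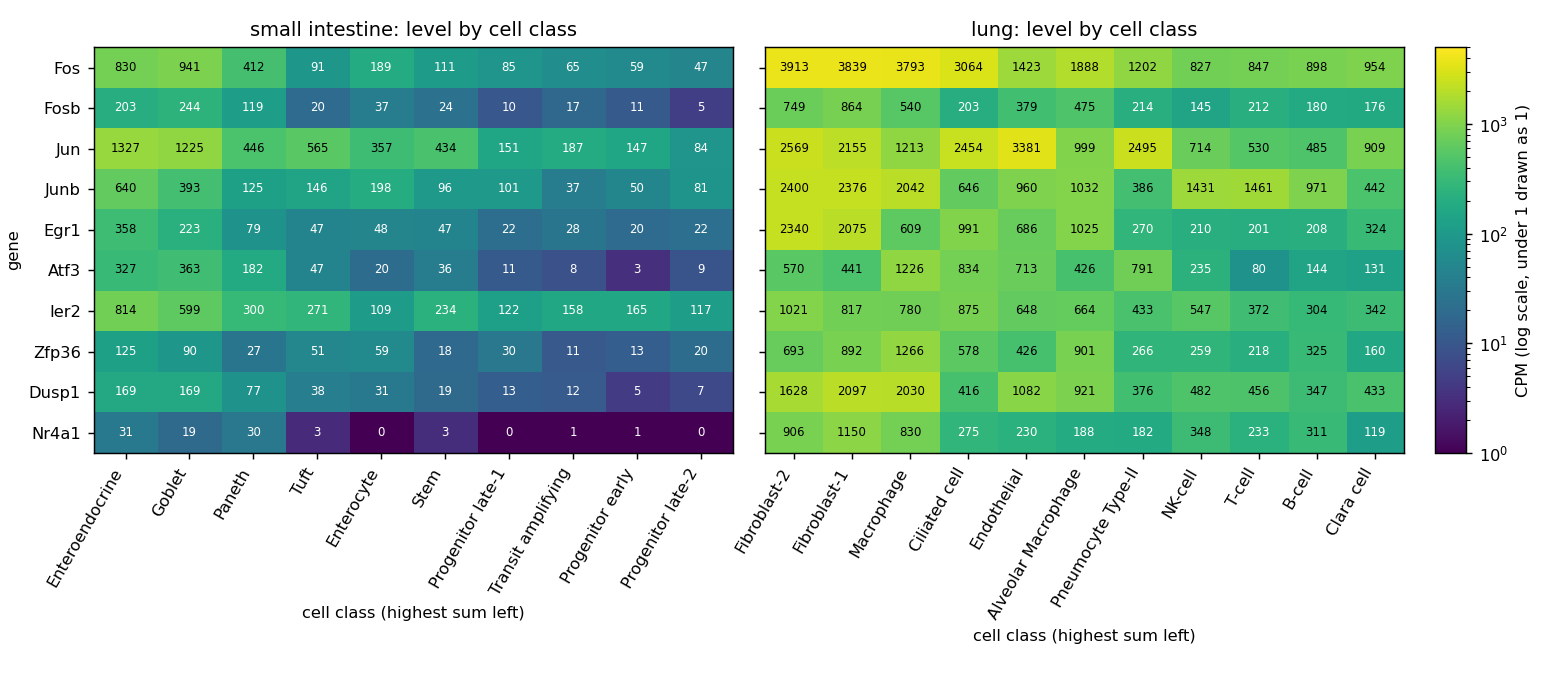
Level of each early gene (rows) in each singlet class (columns, highest summed level on the left), printed in CPM on a log colour scale, for both tissues. In the small intestine the 3 left columns hold the highest Fos values (830, 941 and 412 CPM), and in the lung the leading class differs between genes.

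In the lung, fibroblasts led the sum of the 10 genes and the leading class changed from gene to gene. Fibroblast-2 cells had 16788 CPM of the 10 genes together (528 cells) and Fibroblast-1 cells 16706 CPM (2964 cells), with overlapping intervals. Cells of the Macrophage class had 14331 CPM (283 cells), Ciliated cells 10337 CPM (181 cells), Endothelial cells 9929 CPM (119 cells), Alveolar Macrophages 8518 CPM (227 cells) and Pneumocyte Type-II cells, which make surfactant, 6615 CPM (1009 cells). NK-cells had 5197 CPM (172 cells), T-cells 4611 CPM (334 cells), B-cells 4172 CPM (190 cells) and Clara (club) cells 3991 CPM (61 cells), the last pair with overlapping intervals. Mesothelial cells (10) and Pneumocyte Type-I cells (6) were too few to rank. On the full total the lowest of the 11 ranked lung classes thus stood below the 2 top intestinal classes and above the other 8. Without the genes above 1% of any class in the total, the lowest were B-cells at 4637 CPM. Paneth cells (8734 CPM) then stood above them as well, beside Goblet (5205 CPM) and Enteroendocrine cells (5203 CPM). Tissue, dissociation and library cannot be told apart in either order. Fibroblast-1 cells held 53.4% of the early-gene UMIs and 48.7% of the singlets.

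Fibroblast-1 cells were higher than all other lung singlets for 7 of 10 members (26.4% of all genes) and lower for 1 (28.5%). Nr4a1 stood at 1150 CPM in Fibroblast-1 cells and 357 CPM in the rest (3.22-fold), Egr1 at 2075 CPM and 736 CPM (2.82-fold), and Dusp1 at 2097 CPM and 773 CPM (2.71-fold). Atf3 was the lower member, at 441 CPM in Fibroblast-1 cells and 667 CPM in the rest (0.661-fold). Fibroblast-2 cells were higher for Fos, Junb, Egr1 and Ier2, 4 of 10 (14.7% of all genes), and lower for none (27.2%). Without the genes above 1% of any class in the total, Fos (1.42-fold) and Ier2 (1.46-fold) fell short of the limit there. Junb (1.54-fold) and Egr1 (1.90-fold) stayed past it.

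Other classes led single genes. Jun was highest in Endothelial cells, at 3381 CPM (3252 to 3514), ahead of Fibroblast-2 cells at 2569 CPM. It was the 1 member higher there (1.64-fold over the rest, background 25.4%), beside 5 lower (30.1%). That lead depends on the divisor, since without the genes above 1% of any class in the total Jun had 3866 CPM in Pneumocyte Type-II cells (1.75-fold over the rest) and 3716 CPM in Endothelial cells (1.44-fold). Atf3 and Zfp36 were highest in the Macrophage class, Atf3 at 1226 CPM against 550 CPM in the rest (2.23-fold) and Zfp36 at 1266 CPM against 609 CPM (2.08-fold). With Dusp1 (1.64-fold) these made 3 members higher in that class (17.5% of all genes), and Jun (0.570-fold) and Egr1 (0.477-fold) made 2 lower (45.0%). On the total without the genes above 1% of any class, Dusp1 stood at 1.46-fold there, short of the limit. By a split chosen after the marker values were seen, the 219 Macrophage singlets with more macrophage than neutrophil marker UMIs had 1324 CPM of Atf3, 1210 CPM of Zfp36 and 1890 CPM of Dusp1, and the 45 with more neutrophil marker UMIs had 704, 1746 and 3394 CPM. Atf3 was thus higher in the macrophage-marked cells, and Zfp36 and Dusp1 in the neutrophil-marked ones. Egr1 had 1478 CPM in the neutrophil-marked and 447 CPM in the macrophage-marked singlets, against 1277 CPM in all lung singlets outside the class, so its low level was not shared by the neutrophil-marked cells. Fosb had 907 CPM in the neutrophil-marked and 452 CPM in the macrophage-marked singlets. The neutrophil-marked cells had an early-gene sum of 19853 CPM against 13622 CPM in the macrophage-marked cells. Pneumocyte Type-II cells were lower for 8 members (59.0% of all genes) and higher for Atf3 alone (10.8%), at 791 CPM against 497 CPM in the rest (1.59-fold). Jun in these cells, at 2495 CPM, could not be separated by its interval from Ciliated cells at 2454 CPM. In T-cells 9 members were lower (47.6%; 17.3% higher), and the exception was Junb at 1461 CPM against 1529 CPM in the rest. NK-cells were lower for 8 (45.9%; 22.3% higher), Ciliated cells for 4 (35.3%; 28.8% higher) and Alveolar Macrophages for 3 (43.1%; 21.4% higher). B-cells (49.2% lower, 19.1% higher) and Clara cells (81.5% lower, 3.68% higher) were lower for all 10. Some of these counts changed without the genes above 1% of any class in the total. In Clara cells Fos (0.681-fold), Jun (0.832-fold) and Ier2 (0.963-fold) then fell short of the limit (46.7% of all genes lower, 12.7% higher). In Alveolar Macrophages Fos (0.622-fold), Atf3 (0.646-fold) and Dusp1 (0.635-fold) joined the lower members (46.8%, 17.6%). In Pneumocyte Type-II cells Ier2 (0.748-fold) fell short and Jun (1.75-fold) became higher (41.3%, 15.5%).

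Clara cells held 57.96% of their UMIs in the 20 lung genes above 1% of any class, and Pneumocyte Type-II cells 35.5%. Without those genes in the total, Clara cells stood eighth of 11 classes with 9493 CPM (0.638 of the rest, where the full total gave 0.331), and Pneumocyte Type-II cells had 10250 CPM (0.634, where the full total gave 0.472). The order of the sums at the top, Fibroblast-2, Fibroblast-1 and Macrophage, was the same under both totals, while the class leading for Jun was not.

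**Figure D3:**
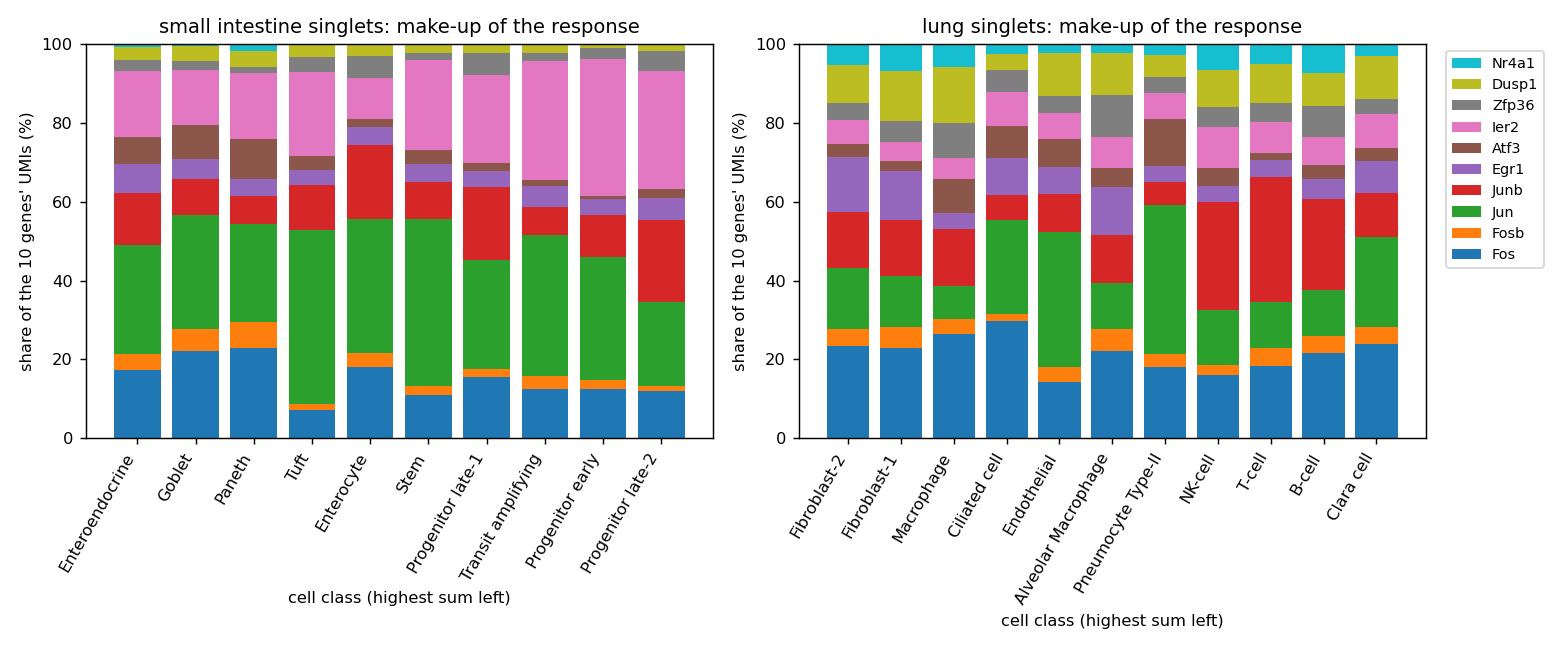
Share of each early gene in the summed UMIs of the 10 genes, by singlet class, with classes ordered by summed level. Ier2 ran between 10.4% and 34.8% in intestinal classes, and Junb between 5.84% and 31.7% in lung classes.

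Classes differed in which early genes made up their sum as well as in its size. In the small intestine, Ier2 was 34.8% of the early-gene UMIs in Progenitor early cells, 30.1% in Transit amplifying cells and 29.9% in Progenitor late-2 cells, but 14.0% in Goblet cells and 10.4% in Enterocytes. Jun was 44.2% in Tuft cells and 42.5% in Stem cells, and 21.3% in Progenitor late-2 cells. Atf3 was 10.1% in Paneth cells and 8.52% in Goblet cells, against 0.665% in Progenitor early cells. In the lung, Junb was 31.7% in T-cells, 27.5% in NK-cells and 23.3% in B-cells, and 5.84% in Pneumocyte Type-II cells. Jun was 37.7% in Pneumocyte Type-II cells and 34.1% in Endothelial cells, and 8.46% in the Macrophage class. Free RNA released into the droplets was not measured, and no class is known to lack these genes. Its part in these levels was not tested.

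Across the 10 intestinal classes the members rose and fell together. Pearson's r of log2(CPM + 1) between pairs of members averaged 0.869 over 45 pairs, from 0.592 for Zfp36 and Nr4a1 to 0.981 for Fos and Fosb. Across the 11 lung classes it averaged 0.652, from -0.05 for Jun and Junb to 0.941 for Fosb and Dusp1. Classes of 1 tissue share a library, so these values describe it and carry no p.

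To compare single cells at 1 depth, each barcode was thinned to 1500 UMIs, which left out no barcode. At least 1 UMI of the 10 genes was then seen in 48.9% of intestinal singlets (47.6% to 50.3%) and in 98.6% of lung singlets (98.2% to 98.9%). Without thinning the shares were 86.4% and 99.95%. In Goblet cells the thinned share was 76.3% (73.6% to 79.0%), in Enteroendocrine cells 74.3%, in Paneth cells 81.8% and in Progenitor early cells 36.5% (33.7% to 39.3%). Fos was seen in 50.2% of thinned Goblet cells and in 5.77% of Progenitor early cells, and Atf3 in 27.4% and 0.602%. At least 5 of the 10 genes were seen together in 32.6% of Goblet cells and 34.9% of Enteroendocrine cells, against 0.688% of Progenitor early cells.

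The spread within the leading intestinal classes was wide. Thinned Goblet cells had a median of 4 early-gene UMIs with a 10th percentile of 0 and a 90th of 16, and 23.7% of them had none. Enteroendocrine cells had a median of 4 and a 90th percentile of 21.6. In Fibroblast-1 cells the median was 22, the 10th percentile 10 and the 90th 40, 5 or more of the genes were seen in 90.5% of cells, and 2 of 2964 cells had none. Clara cells were the most uneven lung class, with a median of 3 and a 90th percentile of 23, and 10 of the 61 cells held 56.5% of the class's early-gene UMIs.

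**Figure D4:**
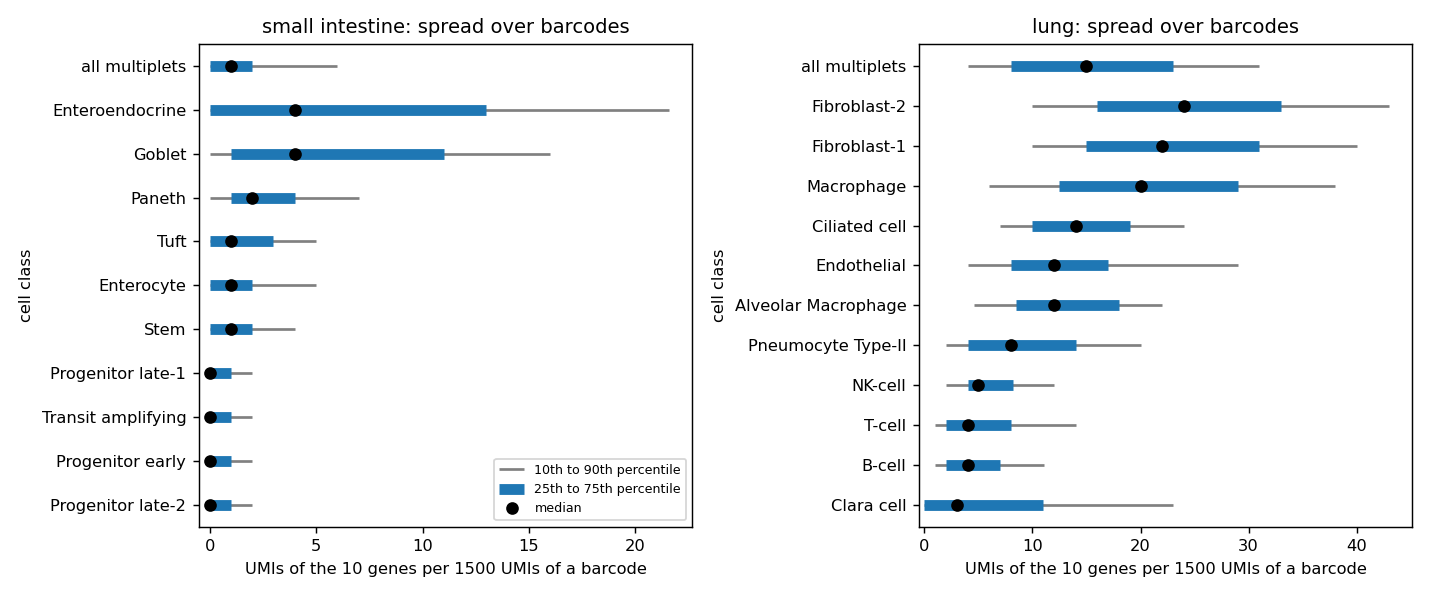
Early-gene UMIs per barcode after thinning to 1500 UMIs, for all multiplets (top row) and each singlet class. Points are medians, thick bars the 25th to 75th and thin lines the 10th to 90th percentile of barcodes. Goblet cells reach from 0 to 16 around a median of 4, and Fibroblast-1 cells from 10 to 40 around 22.

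Cells of the uneven classes were high or low for several members at once. Among cells with at least 5000 UMIs, thinned to that number, the median Spearman rho between pairs of members with a mean over 1 UMI was 0.657 in Goblet cells (21 pairs, 933 cells), 0.675 in Enteroendocrine cells (15 pairs, 111 cells) and 0.651 in Clara cells (21 pairs, 58 cells). It was 0.256 in Fibroblast-1 cells (45 pairs, 2244 cells) and 0.291 in Fibroblast-2 cells (45 pairs, 513 cells). Fos and Jun gave the highest value in Goblet cells, 0.818, and also in Clara cells, 0.803. Within Goblet cells the early-gene sum went with depth at rho 0.0532 and with the mitochondrial share at rho -0.11. In Clara cells those values were -0.31 and 0.627, and the rho with summed heat shock genes was 0.881. With a summed list of kinases and factors upstream of the response, rho was 0.757 in Clara cells and -0.0195 in Goblet cells. The early-gene sum of Clara cells thus rose with other lists as well. Shallow Clara cells, below the class median, had 7898 CPM and deep ones 2380 CPM, and shallow Enteroendocrine cells had 7164 CPM and deep ones 3574 CPM. The part of cell quality in these sums was not tested. In Clara cells the genes above 1% of any class took 57.96% of the UMIs. Their part in the rho values of that class was not tested either.

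Other early genes followed in the same classes. Of a list of 27 further early-response regulators, 20 had enough UMIs in Goblet cells, with 14 higher and 1 lower (12.8% of all genes were higher in Goblet cells and 31.1% lower). Their median was 2.44-fold, where the median over all genes was 0.831. Klf4 (13.8-fold) and Klf2 (12.1-fold), a pair of zinc-finger factors, led. In Enteroendocrine cells, where 30.9% of all genes were higher and 19.7% lower, 15 of 21 were higher and 2 lower (median 2.34-fold, all genes 1.15-fold). Arc stood 52.6-fold above the rest there, at 126 CPM against 2.40 CPM. Myc was at or below 0.619-fold in both classes and was the highest member of this list in Stem cells (2.31-fold) and Progenitor early cells (2.04-fold). Early NF-kappaB and cytokine targets did not follow in Goblet cells, with 0 of 6 past the limit either way. In the lung Macrophage class 14 of 17 of them were higher and 1 lower (17.5% and 45.0% of all genes, median 3.52-fold, all genes 0.751-fold), led by Il1b (133-fold over the rest, 1968 CPM against 14.8 CPM) and Ccl4 (14.9-fold). That class also held neutrophil-marked cells, whose part here was not tested. Alveolar Macrophages were higher for 8 of 17 and lower for 7 (21.4% and 43.1% of all genes), led by Tnf (71.3-fold) and Cxcl2 (40.8-fold). Ccl4 itself was higher in NK-cells, at 3524 CPM against 783 CPM in the Macrophage class. Kinases and factors upstream of the response were higher for 2 and lower for 2 of 13 in Goblet cells.

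Heat shock genes split. Hspa1a and Hspa1b, the inducible chaperones, were 4.97-fold and 3.74-fold higher in Goblet cells, while Hspe1 (0.493-fold) and Hspd1 (0.414-fold), the mitochondrial chaperones, were lower, so that 5 of 12 were higher and 3 lower, where 31.1% of all genes were lower in that class and 12.8% higher. Feedback phosphatases and ERK inhibitors in Goblet cells were higher for 4 and lower for 3 of 11, with Dusp8 (6.49-fold) and Dusp6 (4.45-fold) on top. The lower shares of both lists were near that of all genes. Of AP-1 partners, 4 of 7 were higher in Goblet cells, including Jund (2.65-fold) and Atf4 (2.54-fold), and 1 was lower.

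Genes whose class pattern was most like the mean of the members were ranked by Pearson's r of log2(CPM + 1) with the mean z-score of the members. Over the 10 intestinal classes (8380 genes) these were Btg2 (0.988), Rasd1 (0.970), Hspa1a (0.957), Rhob (0.955) and Klf2 (0.953). Btg2, an antiproliferative early gene, had 1013 CPM in Enteroendocrine cells and 63.7 CPM in Progenitor late-2 cells. Over the 11 lung classes (10950 genes) they were Pnp (0.974), Tm2d2 (0.951), Ssr3 (0.922), Cst3 (0.916) and Vwa5a (0.911). Of the 10 named genes, Btg2, Rhob and Klf2 are on the list of further early regulators and Hspa1a is on the heat shock list, all among the intestinal 5.

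In the multiplets, the early genes were close to their singlet level. Intestinal multiplets had 1282 CPM of the 10 genes (1272 to 1292) and intestinal singlets 1460 CPM (1449 to 1471), a ratio of 0.878 (0.868 to 0.887). Lung multiplets had 10387 CPM (10363 to 10412) and lung singlets 11906 CPM (11878 to 11935), a ratio of 0.872 (0.870 to 0.875). No member passed 1.5-fold in either tissue. Of all genes, 1.42% were called higher and 3.87% lower in the intestinal comparison, and 15.9% higher and 13.8% lower in the lung one. In the small intestine the ratios ran from 0.832 for Jun, at 365 CPM in multiplets and 439 CPM in singlets, to 1.16 for Nr4a1 (0.994 to 1.35), at 7.40 CPM and 6.39 CPM. The median ratio of the members was 0.900 and that of all genes 0.933. In the lung Nr4a1 was the lowest at 0.700 (0.690 to 0.711), with 461 CPM in multiplets and 659 CPM in singlets, and Egr1 the next at 0.747, with 931 CPM and 1246 CPM. Zfp36 (1.15) and Atf3 (1.09), whose highest levels were in the Macrophage class, were the members above 1. Fewer cells of a class and less RNA of these genes per cell cannot be told apart in such library sums.

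The class make-up of the multiplets was therefore fitted from marker genes that hold none of the early genes or lists used here, and the early-gene level predicted from the fitted classes was compared with the observed one. In the lung, Fibroblast-1 cells made up 15.7% of multiplet UMIs and 38.1% of singlet UMIs, and the Macrophage class 18.9% and 4.63%. Neutrophils had no singlet class, and their markers stood at 1712 CPM in lung multiplets and 169 CPM in lung singlets, so RNA of such cells could only be fitted as another class. Of the 546 multiplet barcodes fitted as Macrophage alone, 250 had more neutrophil than macrophage marker UMIs, and these held 25342 CPM of neutrophil markers. Given that make-up, lung multiplets had 1.01 times the predicted early-gene UMIs (1.006 to 1.011), with members between 0.945 for Nr4a1 and 1.07 for Zfp36, none past 1.5-fold (3.62% of all genes higher and 2.83% lower). Singlets fitted with profiles from the other singlets gave 0.996. The low Nr4a1 (0.700) and Egr1 (0.747) of the direct ratio thus came to 0.945 and 1.07 once class was taken into account. In the small intestine the observed level was 0.885 of the predicted one (0.878 to 0.891), with members between 0.828 for Dusp1 and 1.03 for Egr1, again none past 1.5-fold (1.09% of all genes higher and 1.52% lower). Singlets fitted the same way gave 1.07, with 0.621% of all genes higher. The median over all genes was 0.987 in lung multiplets and 0.986 in intestinal ones.

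**Figure D5:**
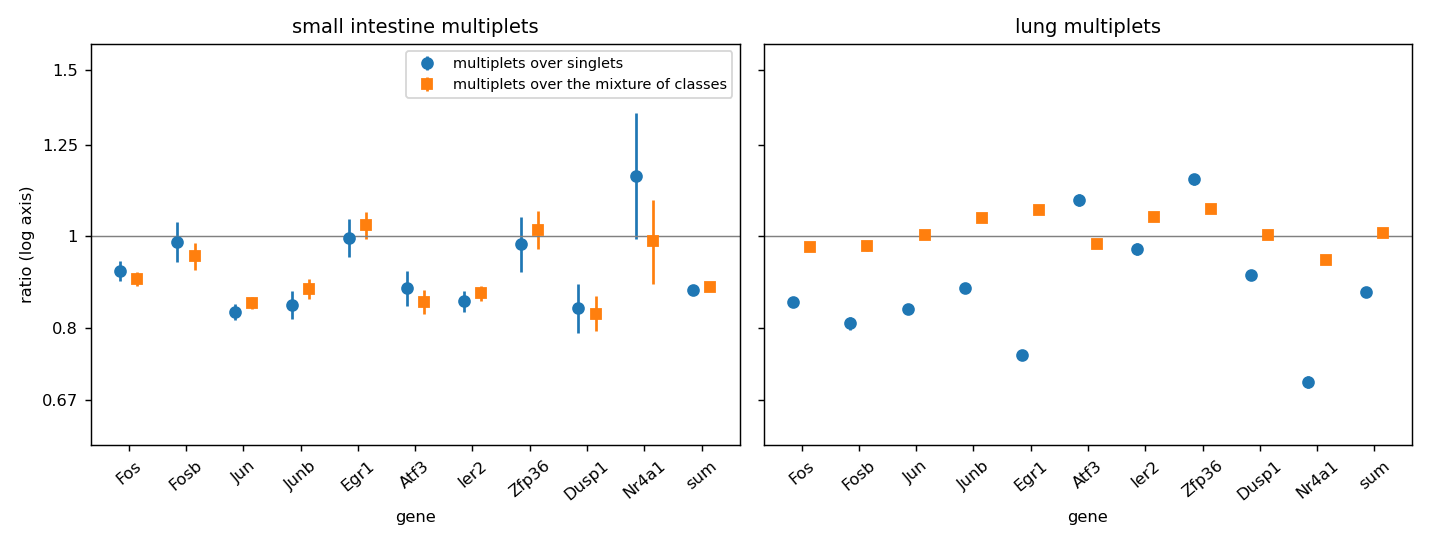
Ratio of each early gene in multiplets to its level in singlets (blue circles) and to the level predicted from the fitted classes (orange squares), on a log axis with 95% counting intervals. In the lung the squares sit between 0.945 and 1.07 while the circles run from 0.700 to 1.15, and in the small intestine both sums lie near 0.88.

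Multiplets were also split by whether a class made up at least 15% of their fitted RNA. Multiplets with Goblet RNA had 2532 CPM and those without 702 CPM (3.60-fold, 1098 and 2573 barcodes), and with Enteroendocrine RNA 2934 CPM and without 1252 CPM (2.34-fold, 79 barcodes with). On the full total Paneth RNA went the other way, with 1013 CPM in the 274 multiplets that had it and 1319 CPM in those without (0.768-fold, 0.748 to 0.788). In Paneth singlets the 31 abundant genes took 79.4% of that total, and the part of this divisor in the ratio was not tested. In the lung, multiplets with Fibroblast-1 RNA had 14977 CPM and those without 9240 CPM (1.62-fold), with Macrophage RNA 13680 CPM and without 9207 CPM (1.49-fold), and with Pneumocyte Type-II RNA 6326 CPM and without 11532 CPM (0.549-fold).

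Barcodes of the multiplet libraries fitted as a single class at a weight of at least 0.85 allow a comparison within a class. Such a barcode may hold several cells of that class or a single cell, which the fit cannot tell apart. Among the 4729 lung multiplet barcodes they included 822 fitted as Pneumocyte Type-II and 791 as Fibroblast-1. Paneth cells differed the most in the small intestine. The 146 Paneth-only multiplet barcodes had 525 CPM (502 to 548) and the 88 Paneth singlets 1796 CPM, a ratio of 0.292 (0.277 to 0.308). All 10 members were lower, between 0.223 for Dusp1 and 0.342 for Zfp36, against 9.64% of all genes called lower and 3.87% higher. Fos had 116 CPM in the Paneth-only multiplets and 412 CPM in Paneth singlets. Median depths were 27235 and 25595 UMIs, the Paneth markers took 593293 and 579496 CPM, and without the 31 abundant genes in the total the ratio was 0.308. The median barcode held 94.5 CPM among Paneth-only multiplets and 1828 CPM among Paneth singlets, and the upper quartiles were 748 and 2579 CPM. Depth and Paneth marker levels were close in both sets and early-gene levels were not. Each side remains 1 library, and the cause of the difference was not tested.

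Goblet-only multiplets (370 barcodes) had 3084 CPM and Goblet singlets 4265 CPM, a ratio of 0.723 (0.708 to 0.738), with 1 of 10 members lower, against 8.41% of all genes called lower and 2.54% higher. Goblet markers stood at 159004 CPM in the Goblet-only multiplets and 109771 CPM in Goblet singlets, and their part in the difference was not tested. The median barcode held 1000.0 CPM among Goblet-only multiplets and 3053 CPM among Goblet singlets, and the upper quartiles were 5555 and 7487 CPM. Progenitor late-1 cells went the other way, at 883 CPM in 51 multiplet barcodes and 546 CPM in singlets (1.62), with 7 of 9 counted members higher (7.31% of all genes), but 10 of those barcodes held 68.8% of the UMIs. Stem-only multiplets (130 barcodes) had 1231 CPM and Stem singlets 1022 CPM (1.20), with 4 of 9 counted members higher and 0 lower (2.09% of all genes higher, 5.23% lower), up to 2.37 for Fosb. In Transit amplifying cells, at 414 CPM in 202 multiplet barcodes and 524 CPM in singlets (0.790), 3 of 9 were lower (4.89%), and in Enterocytes, at 794 CPM in 170 multiplet barcodes and 1050 CPM in singlets (0.756), 3 of 8 were lower (3.57%). In the lung the ratios of the sums lay between 0.669 and 1.15. The ratio was 1.15 in the Macrophage class (16481 CPM in 546 multiplet barcodes, 14331 CPM in singlets), where neutrophil markers stood at 13203 CPM in the multiplets and 3274 CPM in the singlets. Split by those markers, it was 1.09 among macrophage-marked barcodes (14854 CPM in 277 multiplet barcodes, 13622 CPM in 219 singlets) and 0.914 among neutrophil-marked ones (18139 CPM in 250 multiplet barcodes, 19853 CPM in 45 singlets), so the direction of the sum turned in the neutrophil-marked barcodes. The ratio was 1.08 in Alveolar Macrophages, 1.01 in Endothelial cells, 1.01 in Ciliated cells, 0.930 in Fibroblast-1 cells and 0.893 in Pneumocyte Type-II cells. It was 0.757 in Fibroblast-2 cells (57 barcodes), 0.669 in Clara cells (70 barcodes) and 0.862 in T-cells (67 barcodes). No member was higher in any of these 9 lung classes. Clara-only multiplets were lower for 6 of 10 members (8.38% of all genes lower), down to 0.399 for Nr4a1, and T-cell-only ones for 2 (13.9%), Egr1 at 0.239 and Nr4a1 at 0.552. A single member was lower in Endothelial cells (Nr4a1, 0.465, background 5.44%), in Ciliated cells (Nr4a1, 0.651, 5.47%) and in Fibroblast-2 cells (Fos, 0.654, 13.9%). Clara-only multiplets were deeper, with a median of 46386.5 UMIs against 16654 in Clara singlets.

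Around the members, the other lists moved little in intestinal multiplets. Of 21 further early regulators 1 was lower, Myc at 25.5 CPM in multiplets and 39.2 CPM in singlets (0.651), and none was higher. In lung multiplets 11 of 17 NF-kappaB and cytokine targets were higher and none lower (15.9% of all genes higher and 13.8% lower, median 2.07, all genes 0.963), led by Il1b at 640 CPM in multiplets and 105 CPM in singlets (6.08) and Cxcl2 at 860 and 190 CPM (4.52). Of 24 further early regulators 4 were higher and 5 lower there, shares near those of all genes, with Ier5 (1.63) on top. The part of neutrophil RNA in these cytokine values, given its 1712 CPM of markers in multiplets and 169 CPM in singlets, was not tested.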

How the data were processed

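For each of 4 droplet libraries (Chromium Single Cell 3′ v3), the authors deposited UMI counts, not normalized, with gene symbols down and barcodes across, beside a sheet listing each barcode's class. Those deposited counts are whole numbers. Per the submitters' processing notes, the build was mm10 and Cell Ranger 4.0.0 was used. The sheets list 5607, 6710, 8630 and 8410 barcodes (intestinal multiplets and singlets, lung multiplets and singlets), of which the count tables hold 3671, 5279, 4729 and 6084. No filter on barcodes was added. Doublets called by Scrublet in scanpy 1.11.5 (85 barcodes or 1.61% of the intestinal singlet library, 126 or 2.07% of the lung one) were kept, and profiles without them were tried.

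The 10 genes and all lists were chosen with earlier results of these data known. UMIs were summed per class of at least 50 cells, divided by the class total, and compared with all other singlets of the library for genes with at least 50 UMIs on either side. Multiplets were fitted as mixtures of class profiles by expectation maximization (300 iterations) on 40 genes per class, chosen by their level over that of the second class with 10 CPM added to both, 400 genes for the small intestine and 520 for the lung, without any listed gene. All 10 genes are described. From other lists the 2 highest and 2 lowest by fold may be named, and the 5 non-members of at least 20 CPM in 1 class with the highest r. edgeR 4.0.16 gave the TMM factors. Ratio calls and mixture fits were checked on simulated data. Further alternatives are given below.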

Additional observations from a re-analysis of the deposited data

How the results depend on the processing

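The numbers of classes past the limit changed with the setting. In the small intestine 2 classes were higher, or 3 by TMM, median-of-ratios and the total without the most abundant genes, and 4 lower, or 7 without the 10 cells richest in these genes per class and 5 by TMM, median-of-ratios, equal weights per cell and the totals without mitochondrial and ribosomal protein genes or without the most abundant genes. In the lung 1 class was higher, or 0 at a 2-fold limit, and 5 were lower, or 3 by TMM, 3 by median-of-ratios factors and 6 without the most abundant genes. The intestinal multiplet ratio of 0.878 became 0.911 with barcodes weighted equally, 0.943 by TMM, 0.942 by median-of-ratios, 0.8615 without mitochondrial and ribosomal protein genes and 0.932 without the genes above 1%, a divisor chosen after seeing the data. The TMM factor of intestinal multiplets stood at -0.10 relative to that of singlets on the log2 scale, which put Fosb at 1.06, Egr1 at 1.07 and Zfp36 at 1.05, all just below 1 on plain totals. In the lung TMM put Ier2 at 1.005, against 0.970. The lung ratio of 0.872 became 0.886, 0.904, 0.912, 0.892 and 0.860 in the same order, and 0.861 against singlets at least as deep as the shallowest multiplet. Observed over predicted was 0.855 (20 marker genes per class), 0.902 (80) and 0.895 (deep profiles) in the small intestine, and 1.016 (20), 1.019 (without marked doublets) and 0.998 (deep profiles) in the lung. Shares of cells with a UMI were 86.4% and 99.95% without thinning. The cause of these shifts was not tested. Of 168 class folds, 131 moved by more than their counting interval, as did 79 of 140 member ratios, and 0 of either changed side of 1 after a call. No paired analysis was possible because each group has 1 library, and for the same reason no replicate could be left out. Intervals cover counting error only.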
